A study of Mus musculus with 13 samples.

Results

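The sterol and fatty acid synthesis genes described here are 38 named mouse genes of the cholesterol pathway, its control by sterol-sensing proteins, and the making of fatty acids. A gene was measured where a probe set of the platform annotation named it and no other gene, and its brightest such probe set, by the mean of all arrays, was taken. That held for 34 of the 38, out of 22180 genes named this way on the array. Acat2, Idi1, Nr1h2 and Scd2 were not analysed here. Of the 34, 32 lay above the median of all values (4.31 on the log2 scale) in at least 4 arrays and were tested among 12710 genes. Abca1 and Scd1 lay below that level in every array.

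Cholesterol is built from acetyl-CoA through mevalonate and squalene. Cells that are short of sterol release the SREBP transcription factors from the endoplasmic reticulum, where SCAP escorts them and the INSIG proteins hold them back, and SREBPs then switch on the genes of the pathway. Sterol excess acts in the opposite sense through LXR, a nuclear receptor that induces the exporters ABCA1 and ABCG1. T cells that enter division draw on SREBP-driven synthesis to make membranes, and fatty acid synthesis by ACLY, ACACA and FASN runs beside it.

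The cells were donor CD4+ T cells that respond to a host after transfer, a model of graft-versus-host disease in mice. Splenocytes of C57BL/6 mice were injected into B6D2F1 hosts, with mice of both strains 10 to 12 weeks old. At 72 h, CD4+ cells of spleen and lymph node were enriched on beads and sorted for 2 or more divisions, judged by dilution of the dye CFSE, so the sort leaves out undivided cells in every group. All 3 groups received the same transfer. There were 4 arrays from vehicle-treated hosts, 4 from hosts given TCDD (dioxin) at 15 µg/kg on day 0, and 5 from hosts given Cl-BBQ at 10 mg/kg on each of days 0, 1 and 2, which were also the days of vehicle. Both compounds bind and activate AhR, the aryl hydrocarbon receptor, which is a transcription factor. They were given at different doses and on different days, so a comparison between them is one of whole regimens. Vehicle followed the days of Cl-BBQ, so by this schedule TCDD and vehicle hosts also differed in their days of dosing.

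All values are log2 expression of a probe set, and differences are in log2 units. A gene was called at an adjusted p under 0.05, from 1 limma model of the 3 groups with Benjamini-Hochberg adjustment over all 12710 genes within each contrast. Errors after ± are standard errors of the difference unless they are marked SD, and the number of arrays limits the precision. Both contrasts with vehicle use the same 4 vehicle arrays, so their values are given side by side and are not independent. In bulk RNA, fewer cells that express a gene and less of its RNA per cell cannot be told apart.

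Marker genes were checked first. Cyp1b1, an AhR target, rose by 3.20 ± 0.20 with TCDD and by 4.14 ± 0.19 with Cl-BBQ (adjusted p = 1.1e-07 and 2.9e-09). Cd3e averaged 12.0 to 12.1 and Cd4 10.5 to 10.6 in the 3 groups, and neither was called. All 7 measured genes of the T cell marker list had positive differences with both ligands. Thy1 of that list rose by 0.30 with TCDD and by 0.36 with Cl-BBQ (adjusted p = 0.035 and 0.0042). The mean of the list ran from 10.98 to 11.24 on the vehicle arrays, 11.28 to 11.33 after TCDD and 11.28 to 11.35 after Cl-BBQ. The array of Cl-BBQ replicate 1 stood apart, with a median correlation of 0.953 to its own group against 0.967 to 0.975 for the other arrays. Results for Cl-BBQ are therefore also given without it. All 16 genes of a proliferation list fell with both ligands, with an array mean of 8.49 to 8.92 with vehicle, 7.57 to 7.74 with TCDD and 7.28 to 7.43 with Cl-BBQ. Mki67, the antigen Ki-67, averaged 9.44, 8.36 and 7.88 and Top2a, a topoisomerase of dividing cells, 9.31, 8.01 and 7.67 in these groups. A list of 7 B cell markers averaged 4.32 to 4.54, 4.01 to 4.26 and 4.13 to 4.28 in the arrays of the 3 groups, and 5 of the 7 passed the filter. Cd22 fell with both ligands (means 6.17, 4.03 and 4.10), and Ms4a1 lay below the median of all values in every array. Cd79a, Cd79b, Blk and Pax5 were tested and were not called with either ligand. Cd79b averaged 4.69, 4.79 and 5.33. Of the 5 tested B cell genes, 3 had positive differences with TCDD and 2 with Cl-BBQ, so the lower list mean was not shared by all of them. A list of 12 myeloid markers averaged 4.16 to 4.35, 4.02 to 4.32 and 3.99 to 4.27, and 5 of the 12 passed the filter. Among them Cybb fell (means 6.58, 4.44 and 4.11) and Cd68 rose (6.47, 7.27 and 7.11) with both ligands. Tyrobp rose with Cl-BBQ (5.48, 5.88 and 5.97), and Lyz2, Cd14 and Adgre1 were below that median in every array. Among 5 natural killer cell markers only Gzma, which effector T cells also make, was called against vehicle. It rose with both ligands (4.63, 8.08 and 9.28). Klrb1c averaged 6.10, 5.77 and 5.60, Eomes 4.00, 3.39 and 3.61, Ncr1 4.05, 4.38 and 4.24, and Klrd1 3.81, 4.01 and 4.22. Of the CD8 markers, Cd8b1 averaged 6.74, 6.48 and 6.88 and Cd8a 4.17, 4.75 and 4.77, and neither was called. Of 6 measured dendritic cell markers 2 were tested, and none was called. The part of these shifts in the results below was not tested.

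The start regions of 4 sterol synthesis genes that rose with Cl-BBQ and of Elovl6, the member with the largest difference, are printed here because SREBP is known to act through sites of this kind. Each is a window of 300 bases from RefSeq on GRCm38.p6, from 250 bases before the annotated start to 50 bases after it, read on the gene's strand. Capitals mark a sterol regulatory element of the letters TCACNCCAC, which SREBPs bind, or a CCAAT box, the site of NF-Y, a factor that works together with SREBPs at sterol gene promoters. Both were searched on both strands. Hmgcs1 lies on the plus strand at chr13:119690101-119690400, Mvd on the minus strand at chr8:122443373-122443672, and Cyp51 on the minus strand at chr5:4104648-4104947. Msmo1 lies on the minus strand at chr8:64733529-64733828 and Elovl6 on the plus strand at chr3:129532136-129532435.
Hmgcs1: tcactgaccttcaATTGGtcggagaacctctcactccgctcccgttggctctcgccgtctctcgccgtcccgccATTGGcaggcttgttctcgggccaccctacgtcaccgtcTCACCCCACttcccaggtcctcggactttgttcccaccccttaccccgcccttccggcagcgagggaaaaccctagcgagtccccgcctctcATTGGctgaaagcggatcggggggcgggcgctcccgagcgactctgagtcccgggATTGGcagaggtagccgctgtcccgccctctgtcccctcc
Mvd: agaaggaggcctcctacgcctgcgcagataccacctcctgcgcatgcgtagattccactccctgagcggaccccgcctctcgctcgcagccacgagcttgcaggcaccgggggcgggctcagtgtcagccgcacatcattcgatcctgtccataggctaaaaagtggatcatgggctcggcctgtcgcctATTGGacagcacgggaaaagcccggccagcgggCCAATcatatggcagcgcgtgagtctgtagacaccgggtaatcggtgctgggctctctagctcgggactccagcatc
Cyp51: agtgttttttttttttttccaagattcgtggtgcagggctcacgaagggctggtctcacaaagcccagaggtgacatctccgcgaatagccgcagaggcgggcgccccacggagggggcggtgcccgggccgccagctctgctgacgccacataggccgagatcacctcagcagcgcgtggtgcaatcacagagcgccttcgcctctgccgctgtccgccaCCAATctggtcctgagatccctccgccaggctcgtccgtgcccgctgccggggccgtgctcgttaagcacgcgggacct
Msmo1: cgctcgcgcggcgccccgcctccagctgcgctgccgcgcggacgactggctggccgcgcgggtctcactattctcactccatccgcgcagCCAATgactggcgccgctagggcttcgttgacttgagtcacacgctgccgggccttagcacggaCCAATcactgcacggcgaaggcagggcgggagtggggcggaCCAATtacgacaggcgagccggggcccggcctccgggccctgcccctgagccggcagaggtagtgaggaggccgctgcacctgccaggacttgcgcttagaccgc
Elovl6: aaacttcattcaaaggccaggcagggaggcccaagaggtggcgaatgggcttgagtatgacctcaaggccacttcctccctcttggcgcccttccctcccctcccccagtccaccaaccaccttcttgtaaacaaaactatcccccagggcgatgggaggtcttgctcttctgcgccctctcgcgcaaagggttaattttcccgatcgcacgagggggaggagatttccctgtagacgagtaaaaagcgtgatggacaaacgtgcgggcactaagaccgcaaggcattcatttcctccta
Hmgcs1 carried the sterol element once, at position -137 with the annotated start at 0, and 4 CCAAT boxes. Mvd carried 2 CCAAT boxes, Cyp51 1 and Msmo1 3, and the Elovl6 window held neither motif.

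A window was at hand for 29 of the 38 members, 25 of them tested, and for 9989 tested genes in all. CCAAT stood in a window of 21 of the 25 members (84.0%), against 41.8% of the 9989 genes. Members that were not called carried it as well, with 5 boxes in Mvk, 4 in Nsdhl and 3 each in Hsd17b7 and Fasn. The tested members without it were Elovl6 and Fads2, which were called, and Acaca and Scap, which were not. The sterol element in this strict form stood in 1 member, Hmgcs1, and in 1.39% of the genes. GGGCGG, the SP1 box, stood in 84.0% of the members and 64.8% of the genes. The E-box CACGTG stood in 5 of the 25 members (20%) and in 11.5% of the genes. GCGTG, the core of the site that AhR binds with its partner ARNT, stood in 16 members (64.0%) and in 52.9% of the genes. Of the called members with a window, Mvd, Cyp51, Msmo1, Insig1, Mylip and Elovl6 held it. Hmgcs1, Srebf1, Srebf2 and Fads2 did not. The tested members that were not called but held it were Acly, Dhcr7, Fasn, Hsd17b7, Insig2, Lss, Npc2, Nsdhl, Sc5d and Scap. These matches describe letters in a window and no measured binding. The map of motif positions shows them for the called members with a window.

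**Figure D1:**
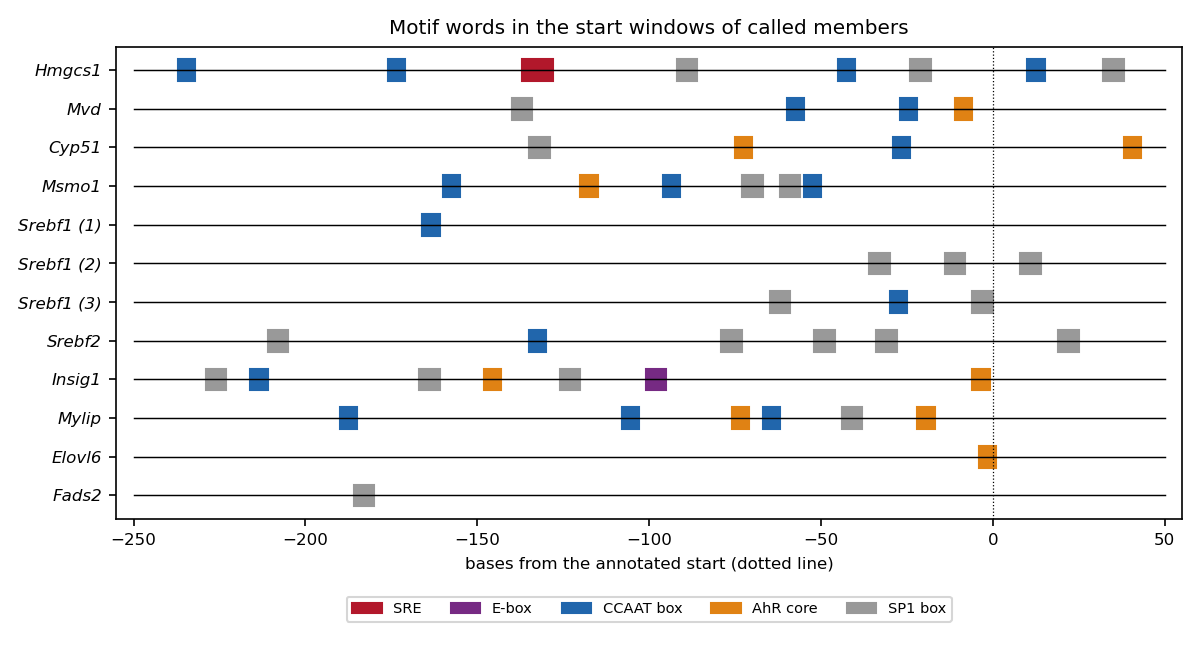
Positions of the searched motifs in the start windows of the 10 called members with a window, as distance in bases from the annotated start (x axis), 1 line per window, with 3 numbered windows for Srebf1; each box is a motif match on either strand, coloured by motif, with SRE for the sterol element. CCAAT boxes appear for all of these genes except Elovl6 and Fads2, and the sterol element appears once, in Hmgcs1 at position -137.

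With TCDD, 4 of the 32 tested members rose, which were Hmgcs1, Mvd and Sqle of the sterol pathway and Elovl6 of fatty acid synthesis. That is 12.5% of the members, beside 3.21% of all tested genes called higher. None of the 32 was called lower by limma, with 1 (Abcg1) at an unadjusted p under 0.05 in that direction, and 3.50% of all tested genes were called lower. With Cl-BBQ, 11 members rose (34.4%, beside 5.31% of all tested genes), which were these 4 and Fdft1, Cyp51, Msmo1, Srebf1, Srebf2, Insig1 and Mylip. Fads2 fell, the 1 member of 32 called lower, beside 6.03% of all tested genes. Without Cl-BBQ replicate 1, 10 members were called with Cl-BBQ, 9 of them among the 12, and Srebf1, Insig1 and Fads2 no longer passed (adjusted p = 0.091, 0.062 and 0.068) while Hsd17b7 did.

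The count with TCDD changed when single arrays were left out. Without vehicle replicate 4, TCDD replicate 1 or TCDD replicate 2, 1 member was called with TCDD, and without vehicle replicate 2, TCDD replicate 3 or TCDD replicate 4, 2 were. Elovl6 was called in each of these fits. The median difference of the 32 members was 0.07 with TCDD and 0.18 with Cl-BBQ, while the median of all tested genes was -9e-04 and -0.0064. All TCDD arrays lay above all vehicle arrays for 7 members and below them for 1, beside 6.31% and 7.28% of all tested genes. All Cl-BBQ arrays lay above all vehicle arrays for 10 members and below for 1, beside 6.08% and 6.80%.

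**Figure D2:**
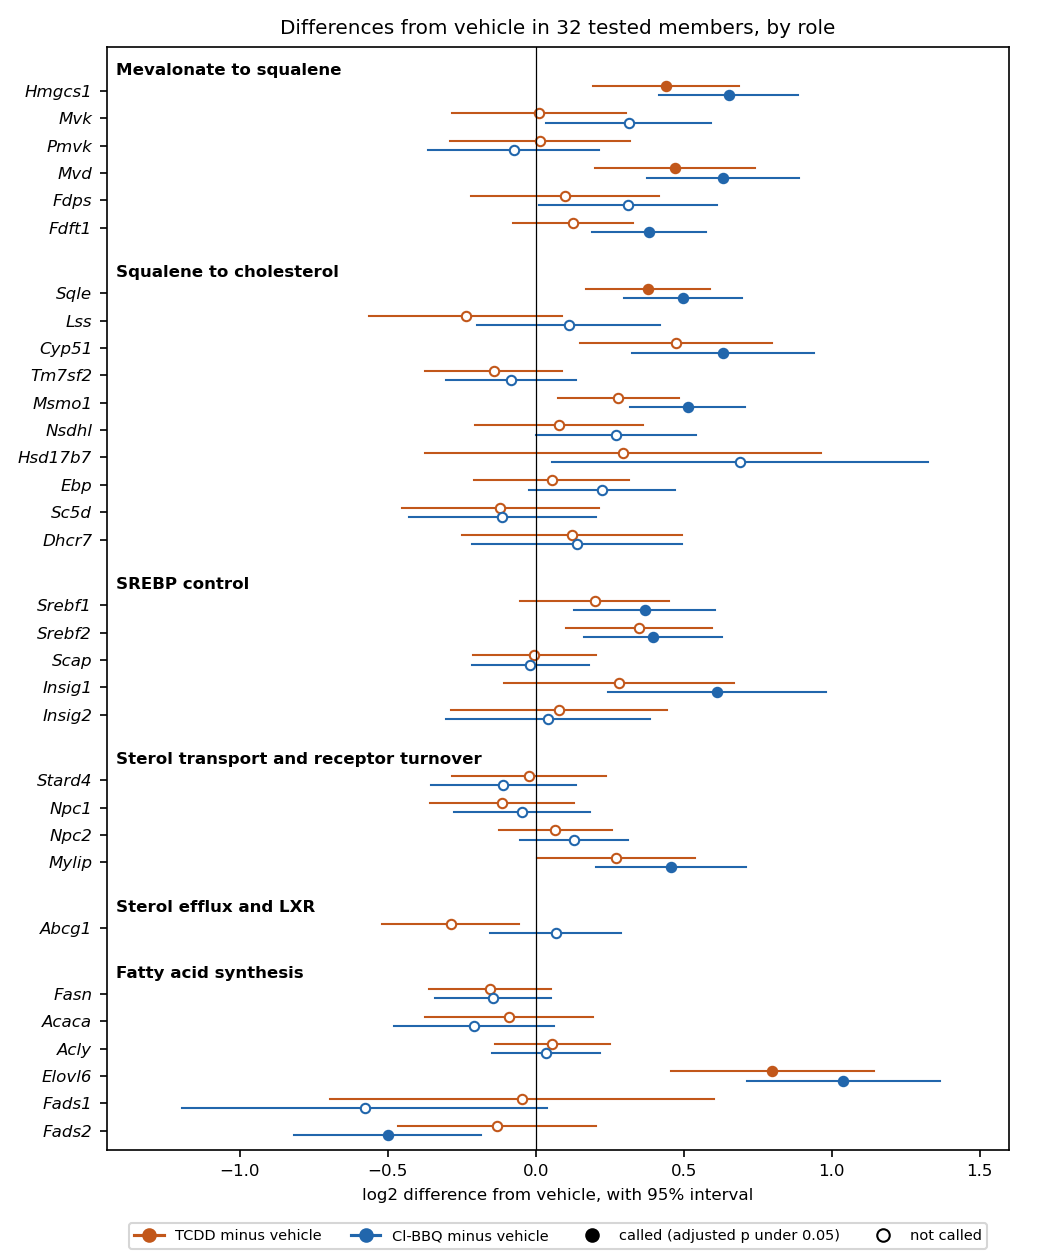
Differences from vehicle in log2 units (x axis) for the 32 tested members, grouped by role, with TCDD in orange and Cl-BBQ in blue; points are limma estimates, lines their 95% intervals, and filled points were called. With Cl-BBQ, filled points number 3 of 6 in the steps to squalene, 3 of 10 in those to cholesterol and 3 of 5 in SREBP control. Of 6 fatty acid synthesis genes, 1 is filled on the right and 1 on the left. With TCDD the filled points number 2, 1, 0 and 1 in these roles. Elovl6 lies farthest to the right at 0.80 and 1.04, and Fads2 is the filled point on the left at -0.50.

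Of 8 genes that lead from acetyl-CoA to squalene, 6 were tested, of which 2 rose with TCDD and 3 with Cl-BBQ. Hmgcs1, the synthase that makes HMG-CoA, read 7.78, 7.80, 7.62 and 7.50 on the vehicle arrays. It read 8.17, 8.12, 8.16 and 8.02 with TCDD and 8.20, 8.27, 8.44, 8.11 and 8.62 with Cl-BBQ. Every treated array lay above every vehicle array, and the treated groups overlapped each other. Hmgcs1 rose by 0.44 ± 0.12 with TCDD (limma adjusted p = 0.032, up to 0.098 when 1 array was left out) and by 0.65 ± 0.11 with Cl-BBQ (adjusted p = 0.00087), which is 1.57-fold.

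Mvd, the decarboxylase that ends the mevalonate steps, read 6.68, 6.55, 7.11 and 6.90 with vehicle, 7.25, 7.19, 7.42 and 7.25 with TCDD, and 7.49, 7.29, 7.59, 7.59 and 7.25 with Cl-BBQ. Its treated arrays were all above the vehicle arrays, although the vehicle group spread widely (SD 0.25) and its highest array came close to the lowest treated one. Mvd rose by 0.47 ± 0.13 with TCDD (adjusted p = 0.037, up to 0.12 when 1 array was left out) and by 0.63 ± 0.12 with Cl-BBQ (adjusted p = 0.0022). Fdft1, squalene synthase, commits the pathway to sterols. It read 7.93, 7.65, 7.82 and 7.90 with vehicle, 7.94, 7.99, 8.0 and 7.87 with TCDD, and 8.34, 8.01, 8.25, 8.21 and 8.22 with Cl-BBQ. Its Cl-BBQ arrays lay above those of both other groups, while vehicle and TCDD overlapped. Fdft1 rose by 0.38 ± 0.09 with Cl-BBQ (adjusted p = 0.011), and its difference with TCDD was 0.12 (adjusted p = 0.56).

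The remaining measured steps did not pass the test. Mvk, mevalonate kinase, averaged 5.57 on the vehicle arrays, 5.58 after TCDD and 5.88 after Cl-BBQ, and Fdps, which makes farnesyl diphosphate, averaged 8.18, 8.27 and 8.49. Their differences with Cl-BBQ were both 0.31, with adjusted p = 0.16 for Mvk and 0.20 for Fdps. Pmvk, phosphomevalonate kinase, differed by 0.01 with TCDD, as did Mvk, and by -0.07 with Cl-BBQ, where it was the 1 negative gene of the stage. Its Cl-BBQ arrays ran from 7.91, in replicate 1, to 8.70.

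Of the 10 genes that turn squalene into cholesterol, 1 rose with TCDD and 3 with Cl-BBQ. Sqle, squalene epoxidase, is a rate-limiting enzyme of sterol synthesis. It read 7.10, 6.72, 6.95 and 6.80 with vehicle, 7.27, 7.28, 7.16 and 7.39 with TCDD, and 7.41, 7.28, 7.50, 7.37 and 7.38 with Cl-BBQ. The treated groups lay wholly above vehicle and overlapped each other. Sqle rose by 0.38 ± 0.098 with TCDD (adjusted p = 0.029, up to 0.099 when 1 array was left out and 0.076 with the replicate number as a block) and by 0.50 ± 0.093 with Cl-BBQ (adjusted p = 0.0020).

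Cyp51, the demethylase that acts on lanosterol, read 7.20, 7.11, 6.98 and 6.86 with vehicle, 7.40, 7.56, 7.72 and 7.35 with TCDD, and 7.31, 7.99, 7.92, 7.42 and 7.72 with Cl-BBQ. All treated arrays lay above the vehicle arrays. Cyp51 rose by 0.63 ± 0.14 with Cl-BBQ (adjusted p = 0.0087), while its difference of 0.47 ± 0.15 with TCDD had an adjusted p of 0.086. That difference passed without Cl-BBQ replicate 1 (adjusted p = 0.047), and its adjusted p was 0.23 without TCDD replicate 3. Msmo1, a methylsterol oxidase that acts after CYP51, was tight in the vehicle group at 6.52, 6.58, 6.55 and 6.62. It read 6.91, 6.97, 6.81 and 6.70 with TCDD and 7.31, 7.02, 7.06, 6.95 and 7.08 with Cl-BBQ, so both treated groups were clear of vehicle. Msmo1 rose by 0.51 ± 0.091 with Cl-BBQ (adjusted p = 0.0013), and its difference with TCDD was 0.28 ± 0.096 (adjusted p = 0.11).

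Other enzymes of these late steps differed less or varied more. Hsd17b7, a sterol ketoreductase, ran from 4.37 to 5.05 with vehicle, from 4.61 to 5.77 with TCDD and from 4.51 to 6.05 with Cl-BBQ. Its difference of 0.69 ± 0.30 with Cl-BBQ did not pass (adjusted p = 0.18). Its lowest Cl-BBQ array was replicate 1, and without that array the difference was 0.94 (adjusted p = 0.018). Its lowest vehicle array was also replicate 1, and without that one the difference was 0.54 (adjusted p = 0.38). Nsdhl, a sterol dehydrogenase, and Ebp, a sterol isomerase, had differences with Cl-BBQ of 0.27 and 0.22 (adjusted p = 0.21 and 0.27).

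Lanosterol synthase, encoded by Lss, differed by -0.24 with TCDD and by 0.11 with Cl-BBQ, and neither passed. The reductase Tm7sf2, the desaturase Sc5d and Dhcr7, a reductase at the end of the pathway, lay between -0.14 and 0.12 with TCDD and between -0.11 and 0.14 with Cl-BBQ. The called late genes were thus Sqle, Cyp51 and Msmo1, and the array means of the last 10 steps ran from 6.93 to 7.04 with vehicle, 6.96 to 7.22 with TCDD and 7.06 to 7.45 with Cl-BBQ.

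**Figure D3:**
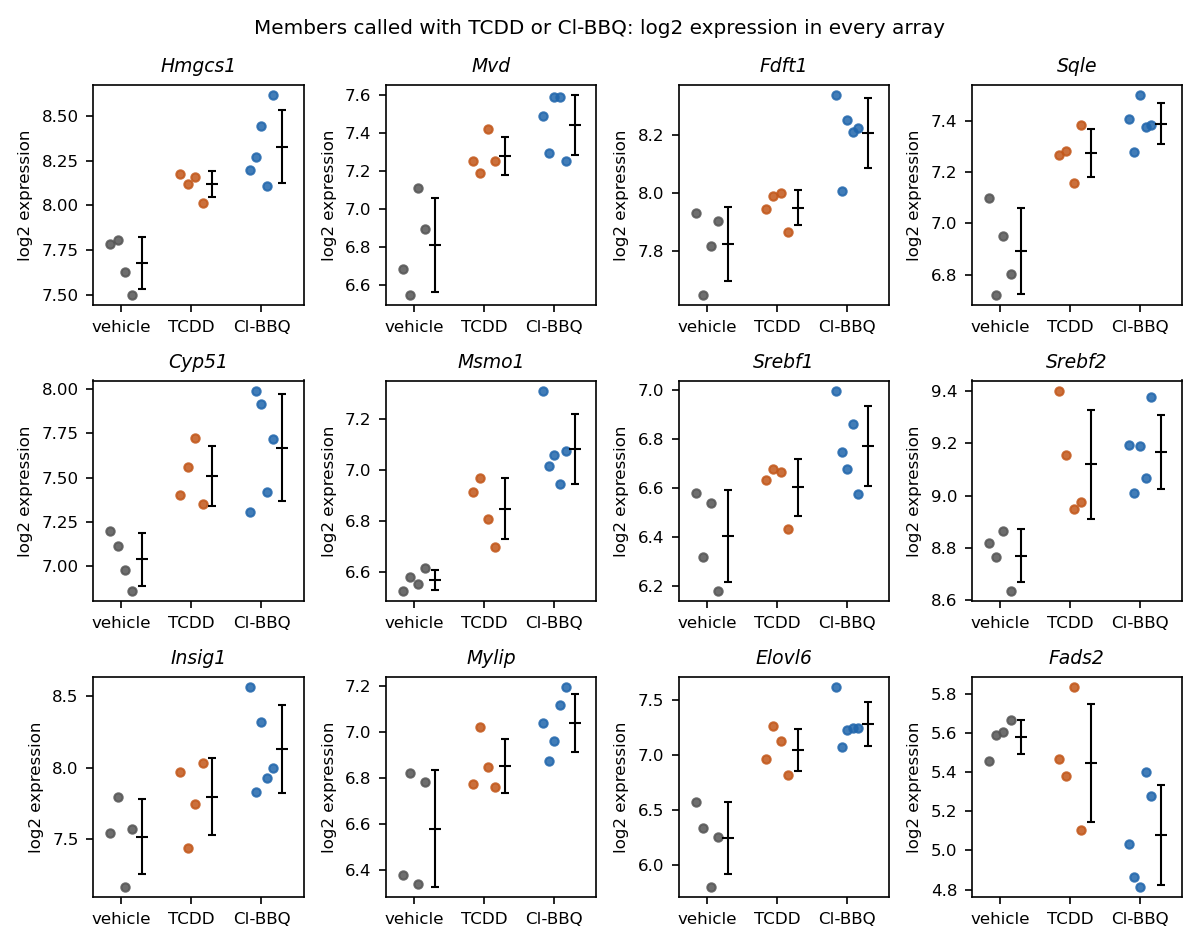
Log2 expression on each of the 13 arrays (y axes, which do not start at 0) for the 12 members called in a contrast with vehicle, 1 panel per gene, with vehicle, TCDD and Cl-BBQ on the x axis; each point is 1 array, and the bar beside each group is its mean ± SD. The Cl-BBQ points sit wholly above the vehicle points in 10 panels, overlap them for Srebf1 and sit below them for Fads2.

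Of the 5 genes of SREBP control, none was called with TCDD by limma, with Srebf2 alone at an unadjusted p under 0.05, and 3 rose with Cl-BBQ. Srebf2, which encodes the SREBP that mainly drives sterol genes, read 8.82, 8.76, 8.87 and 8.63 with vehicle, 9.40, 9.15, 8.95 and 8.97 with TCDD, and 9.19, 9.01, 9.19, 9.07 and 9.38 with Cl-BBQ. The treated arrays all lay above the vehicle arrays. Srebf2 rose by 0.40 ± 0.11 with Cl-BBQ (adjusted p = 0.028, 0.080 with the replicate number as a block), and its difference with TCDD was 0.35 ± 0.12 (adjusted p = 0.097).

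Insig1, itself an SREBP target that retains the SCAP complex, read 7.54, 7.79, 7.16 and 7.57 with vehicle, 7.97, 7.44, 7.75 and 8.03 with TCDD, and 8.57, 7.83, 8.32, 7.92 and 8.0 with Cl-BBQ. The Cl-BBQ arrays lay just above the vehicle arrays, and TCDD overlapped both groups. Insig1 rose by 0.61 ± 0.17 with Cl-BBQ (adjusted p = 0.032, up to 0.11 when 1 array was left out), and its highest array was replicate 1. Srebf1, which encodes the SREBP tied more to fatty acid genes, read 6.58, 6.32, 6.54 and 6.18 with vehicle, 6.64, 6.68, 6.67 and 6.43 with TCDD and 7.00, 6.75, 6.68, 6.86 and 6.58 with Cl-BBQ. Its groups met at 6.58, and it was the called member whose arrays overlapped those of vehicle. Srebf1 rose by 0.37 ± 0.11 with Cl-BBQ (adjusted p = 0.046, and up to 0.15 without vehicle replicate 4). The escort Scap and the further retention gene Insig2 had differences from -0.02 to 0.08 across both ligands.

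Among the 4 genes of sterol transport and receptor turnover, Mylip rose with Cl-BBQ. MYLIP, also called IDOL, is a ubiquitin ligase that LXR induces and that sends lipoprotein receptors to degradation. It read 6.38, 6.82, 6.34 and 6.78 with vehicle, 6.77, 7.02, 6.85 and 6.76 with TCDD, and 7.04, 6.87, 6.96, 7.12 and 7.20 with Cl-BBQ. The vehicle arrays formed a low pair and a high pair, and the Cl-BBQ arrays lay above both. Mylip rose by 0.46 ± 0.12 with Cl-BBQ (adjusted p = 0.019, up to 0.073 when 1 array was left out), and its difference with TCDD was 0.27 (adjusted p = 0.27). Npc1 and Npc2, which carry cholesterol out of lysosomes, and the sterol carrier Stard4 differed by -0.11 to 0.13 with either ligand, and none was called.

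Neither LXR-induced exporter was called. Abca1 averaged 3.63 with vehicle and 3.59 with each ligand, below the level at which genes were tested. Abcg1 read 7.20, 7.20, 7.19 and 7.19 with vehicle, 6.89, 6.99, 7.17 and 6.58 with TCDD, and 7.32, 7.19, 7.21, 7.26 and 7.34 with Cl-BBQ. The TCDD arrays all lay below the vehicle arrays, with replicate 3 close to them, and the Cl-BBQ arrays lay within or above the vehicle range. The difference was -0.29 ± 0.11 with TCDD (adjusted p = 0.16) and 0.07 with Cl-BBQ (adjusted p = 0.78).

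Of the 6 tested fatty acid synthesis genes, 1 rose with TCDD, while 1 rose and 1 fell with Cl-BBQ, and their medians were -0.07 and -0.18. Elovl6 lengthens the palmitate that fatty acid synthase makes and is an SREBP target in liver. It read 6.58, 6.34, 5.80 and 6.25 with vehicle, 6.97, 7.26, 7.13 and 6.82 with TCDD, and 7.62, 7.08, 7.22, 7.25 and 7.25 with Cl-BBQ. All treated arrays lay above all vehicle arrays, and the treated groups overlapped each other. Elovl6 rose by 0.80 ± 0.16 with TCDD (adjusted p = 0.0058) and by 1.04 ± 0.15 with Cl-BBQ (adjusted p = 2.7e-04), or 1.74-fold and 2.06-fold. It was called with both ligands in every alternative tried.

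Fads2, a desaturase that starts the making of long polyunsaturated fatty acids, read 5.46, 5.59, 5.60 and 5.67 with vehicle, 5.47, 5.38, 5.84 and 5.11 with TCDD, and 5.03, 4.87, 4.81, 5.40 and 5.28 with Cl-BBQ. The Cl-BBQ arrays lay below the vehicle arrays, with replicate 4 close to them, and TCDD spanned both. Fads2 fell by 0.50 on the log2 scale with Cl-BBQ (SE 0.15, adjusted p = 0.041, and up to 0.10 without vehicle replicate 4). Its partner desaturase Fads1 read 5.95, 5.98, 5.82 and 5.70 with vehicle, 6.44, 5.50, 5.78 and 5.55 with TCDD, and 4.58, 5.33, 5.15, 4.97 and 6.41 with Cl-BBQ. In Fads1 4 of the 5 Cl-BBQ arrays lay below vehicle and replicate 5 lay above it. Its difference of -0.58 ± 0.29 did not pass (adjusted p = 0.25), and without Cl-BBQ replicate 5 it did (adjusted p = 0.013). No other single array left out had this effect, and without Cl-BBQ replicate 1 the adjusted p was 0.43.

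The core enzymes differed little. Acly, which supplies cytosolic acetyl-CoA, averaged 8.16 on the vehicle arrays, 8.22 after TCDD and 8.19 after Cl-BBQ. For Fasn, fatty acid synthase, the differences were -0.16 and -0.14, and for Acaca, acetyl-CoA carboxylase, they were -0.09 and -0.21. None of these passed, and Scd1, a desaturase abundant in liver, averaged 3.07, 2.90 and 2.84, below the tested range.

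**Figure D4:**
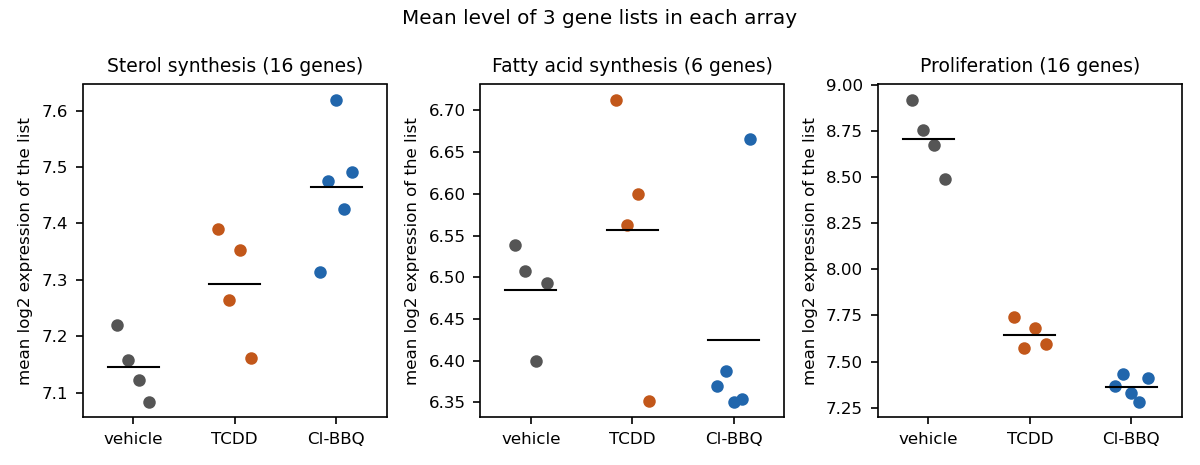
Mean log2 expression per array (y axes, which do not start at 0) of the 16 tested sterol synthesis genes, the 6 tested fatty acid synthesis genes and the 16 proliferation genes, with the 3 groups on the x axis; each point is 1 array and each line a group mean. The sterol means run from 7.08 to 7.22 with vehicle, 7.16 to 7.39 with TCDD and 7.31 to 7.62 with Cl-BBQ, the fatty acid means overlap between all groups, and the proliferation means of the treated arrays lie below those of vehicle.

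Array means were set beside the single genes. The mean of the 16 sterol synthesis genes overlapped between vehicle and TCDD, and every Cl-BBQ array lay above every vehicle array. The fatty acid mean ran from 6.40 to 6.54 with vehicle, 6.35 to 6.71 with TCDD and 6.35 to 6.67 with Cl-BBQ, so no group stood apart. The Cl-BBQ arrays, with the highest group mean of sterol genes, also had the lowest group mean of proliferation genes, and the part of one in the other was not tested.

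The direct contrast asked whether the regimens differed in these genes. No member was called between Cl-BBQ and TCDD by limma, with 6 at an unadjusted p under 0.05, and 3 of all tested genes (0.0236%) were called. The median member difference was 0.14 against -0.0044 over all genes, and 24 of 32 were positive. Among the 16 sterol synthesis genes 15 were positive, all except Pmvk, beside 48.6% of all tested genes. For 2 members, Fdft1 and Abcg1, the Cl-BBQ arrays lay wholly above the TCDD arrays, beside 1.03% of all tested genes. Abcg1 differed by 0.36 ± 0.10 (adjusted p = 0.52) and Fdft1 by 0.26 ± 0.09 (adjusted p = 0.61). For the genes that rose with both ligands the 95% intervals of Cl-BBQ minus TCDD were -0.02 to 0.45 for Hmgcs1, -0.09 to 0.42 for Mvd, -0.08 to 0.32 for Sqle and -0.08 to 0.57 for Elovl6. These intervals hold 0 and also hold differences as large as the TCDD effect itself for Hmgcs1, so they do not show that the regimens acted alike.

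Genes around the pathway were read from 5 further lists. Beside their counts, 3.21% of all tested genes were called higher and 3.50% lower with TCDD. With Cl-BBQ these shares were 5.31% and 6.03%. Whether the lists differ from these shares was not tested, and the genes below are named as single genes. No gene of these lists was called by limma between Cl-BBQ and TCDD. Of 11 tested genes of the isoprenoid branches, which use farnesyl diphosphate for dolichol, ubiquinone and protein prenylation, limma called none with TCDD (3 at an unadjusted p under 0.05) and 1 lower with Cl-BBQ. That gene was Dhdds, a subunit of the enzyme that makes the dolichol chain, which fell by 0.47 on the log2 scale (SE 0.13, adjusted p = 0.025). The difference of Dhdds with TCDD was -0.33 (adjusted p = 0.19). Of 9 genes of SREBP processing and LXR partners, Spring1, which licenses the protease that cuts SREBPs, rose by 0.54 ± 0.12 with TCDD (adjusted p = 0.011). Its difference with Cl-BBQ was 0.29 (adjusted p = 0.13), with all Cl-BBQ arrays above all vehicle arrays. With Cl-BBQ, 2 of the 9 rose. These were Rxra, the receptor that pairs with LXR, by 0.69 ± 0.17 (adjusted p = 0.014) and Lpcat3, a phospholipid acyltransferase that LXR induces, by 0.40 ± 0.10 (adjusted p = 0.019). With TCDD their differences were 0.43 and 0.16 (adjusted p = 0.21 and 0.50).

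Of 9 genes of sterol storage and movement, Gramd1a rose with both ligands, by 0.65 ± 0.12 with TCDD (adjusted p = 0.0029) and by 0.79 ± 0.11 with Cl-BBQ (adjusted p = 2.0e-04). It encodes a protein that moves cholesterol from the plasma membrane to the endoplasmic reticulum. Nceh1, a cholesteryl ester hydrolase, fell by 0.63 on the log2 scale with Cl-BBQ (SE 0.19, adjusted p = 0.049). Its difference with TCDD was -0.41 (adjusted p = 0.31). Of 15 genes of fatty acid supply, elongation and esterification, Fabp5, a fatty acid carrier, fell by 0.77 with TCDD and by 0.99 with Cl-BBQ (adjusted p = 0.014 and 8.6e-04). Elovl1, an elongase of very long chains, rose by 0.35 ± 0.09 with Cl-BBQ (adjusted p = 0.018), and Dgat1, which makes triglyceride, by 0.71 ± 0.16 (adjusted p = 0.0066). With TCDD the differences of Elovl1 and Dgat1 were 0.29 and 0.55 (adjusted p = 0.097 and 0.061). Of 11 genes of fatty acid oxidation none was called with either ligand by limma, and 0 had an unadjusted p under 0.05.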

How the data were processed

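Expression was measured on 13 single-colour arrays, grouped by the labels. The deposited values are log2 expression per probe set made by the authors with RMA (which normalizes quantiles between arrays), per the submitters' processing notes. No source used here states its version or annotation. Array medians lay between 4.27 and 4.33. A shift of all transcripts cannot be seen after quantile normalization. From 41345 probe sets, those with 1 symbol were kept, the brightest per gene was used, and 12710 of 22180 genes passed the filter. One limma model (version 3.58.1, R 4.3.3) of 3 group means was fitted with lmFit and eBayes (10 residual and 4.22 prior degrees of freedom), with two-sided tests and Benjamini-Hochberg adjustment, and was tested on simulated data. All members are named; from each further list, up to 4 called genes with the smallest adjusted p per contrast with vehicle, and Cyp1b1, Cd4, Cd3e, Mki67 and Top2a whatever their result. Other marker genes were named after their values were seen. Members and lists were chosen with earlier results of these data known. Replicate numbers did not pair the arrays: over 12 same-numbered pairs, the correlation of deviations from group means ran from -0.0594 to 0.0751. Alternatives varied the filter, normalization, probe set rule, samples, variance model, weights, replicate block and each array. Promoter windows are RefSeq's on GRCm38.p6; positions count from the annotated start at 0.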

Additional observations from a re-analysis of the deposited data

Results flagged for a closer look

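Among 102 groups of arrays, 1 per member and treatment, 5 had an array that stood apart, measured as its gap to the nearest array over the range of the group. Chance gives about 1 in 20. Hsd17b7 had its lowest vehicle array in replicate 1, at 4.37 against 4.94 to 5.05 (ratio 0.830). Npc1 had its lowest TCDD array in replicate 3, at 6.53 against 6.78 to 6.81 (0.866). Lss had its highest Cl-BBQ array in replicate 3, at 6.11 against 5.57 to 5.70 (0.750). Abca1 and Scd1, both below the tested range, were the other 2. Abca1 read 3.64 in vehicle replicate 1 and 3.63 in the other vehicle arrays (1.0), and Scd1 read 3.20 in Cl-BBQ replicate 5 against 2.64 to 2.80 (0.714).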

How the results depend on the processing

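Against 4 members called with TCDD, 1 was called with no filter on dim probe sets, and 1 to 5 when 1 array was left out. Against 12 called with Cl-BBQ, 8 were called with no filter and 8 to 12 when 1 array was left out. None was called between the ligands in any alternative. The replicate number as a block, which did not pair the arrays, gave 3 with TCDD, 9 with Cl-BBQ and 0 between them. Over 22 alternatives, Hmgcs1, Mvd, Fdft1, Sqle, Cyp51, Msmo1 and Elovl6 kept their calls with Cl-BBQ and Elovl6 with TCDD. Single arrays left out ended the TCDD calls of Hmgcs1, Mvd and Sqle and the Cl-BBQ calls of Srebf1, Srebf2, Insig1, Mylip and Fads2, the latter with adjusted p of up to 0.15, 0.091, 0.11, 0.073 and 0.10. Other settings ended some of these calls as well. With only the compared groups in the model, Mvd and Sqle were not called with TCDD, nor Srebf1 with Cl-BBQ. Sqle with TCDD and Srebf1 with Cl-BBQ also failed with array medians subtracted, and Insig1 with Cl-BBQ with array weights. Without the filter, all of these calls except that of Mylip were lost. No member's difference changed sign past the threshold. The cause of the lost calls was not tested, other than that fewer arrays entered the fits with an array left out.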

Other observations

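A further probe set of Npc1, above the median of all values in 5 of 13 arrays, averaged 4.39 on the vehicle arrays, 3.61 after TCDD and 4.27 after Cl-BBQ, a difference of -0.78 with TCDD where the brighter set gave -0.11. A further probe set of Scap averaged 4.76 with vehicle and 4.82 with each ligand.

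Of the 16 tested sterol synthesis genes, 5 had their highest value of all 13 arrays in Cl-BBQ replicate 3, and 10 had their lowest TCDD value in TCDD replicate 4. Vehicle replicate 4 held the lowest of the 13 values for 4 of these genes.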
